A study of Rattus norvegicus with 16 samples.

Results

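Vdr, S100g, Trpv6, Atp2b1, Cybrd1, Heph, Tfrc and Fth1 are 8 genes of intestinal calcium and iron absorption. They were chosen by name, and all probes that the array design gives for these names were used. This gave 11 probes on 20 spots, out of 18544 named genes and 30367 probes on the array. All 11 were among the 21174 probes that were well above background in the tissue channel in at least 1 group.

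Stomach RNA and RNA from the middle intestine of suckling Wistar rats (Wistar Han in the study's methods) was measured in 4 groups of 4 arrays with 2 colours each. Rats of the OH group had received obestatin, a peptide cut from the same precursor as ghrelin, at 250 nmol/kg BW into the gut, given 2 times daily over days 14 to 21 of life, and rats of the C group had received saline solution in the same way. Each tissue of each treatment formed a group, named C or OH with stomach or middle intestine. Every array held the tissue in Cy5 and the same reference in Cy3, a pool of RNA from all rats of the study, and dyes were not swapped. All values below are log2 ratios of Cy5 to Cy3 unless the sentence says otherwise, so that 0 is the level of the pool for that probe and 1 is a doubling. Levels of different probes were not compared. The RNA came from whole tissue, in which fewer cells of a type and less RNA per cell cannot be told apart.

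Calcium crosses the enterocyte in steps. It enters at the brush border through the channel TRPV6, is bound in the cytosol by the small buffer protein calbindin, encoded by S100g, and leaves at the basolateral side through the pump encoded by Atp2b1, and the vitamin D receptor, encoded by Vdr, raises the transcription of these genes when it binds its hormone. Iron is reduced at the brush border by the reductase encoded by Cybrd1, enters through the transporter encoded by Slc11a2, leaves through ferroportin, encoded by Slc40a1, and is oxidised on exit by hephaestin, encoded by Heph. The transferrin receptor, encoded by Tfrc, takes up iron from the blood side, and ferritin, of which Fth1 encodes the heavy chain, stores it. The duodenum is known as the main site of regulated absorption of both metals.

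The letters of the probes show what was read. The first 30 bases of the probes for Trpv6 and for the 3 genes that were higher in the middle intestine in both treatments are given here, with the coordinates of the whole probe of 60 bases in the rn4 build as the array design gives them, on the plus strand for S100g at chrX:52449257-52449316 and Heph at chrX:84138506-84138565 and on the minus strand for Trpv6 at chr4:69332349-69332408 and Vdr at chr7:136567655-136567714.
Trpv6: gctctcaccaaacatcaaaacagaatgaaa
S100g: cgacaccacctactgattgaatcctatcca
Heph: ccagattttagcttaattgtctttgacaat
Vdr: ggggctcactcactgccaagatgaccaaat

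Tfrc, Atp2b1 and Fth1 had 2 probes each. The second Tfrc probe covered chr11:69978846-69980500 on the minus strand, 1655 bases of genome for a probe of 60 bases, and so lay across a splice junction. It is shown whole because it reads another stretch of the mRNA than the first Tfrc probe at chr11:69976628-69976687.
Tfrc, second probe: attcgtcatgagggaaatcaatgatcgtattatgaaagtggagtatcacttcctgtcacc

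The Fth1 probes, at chr1:212432616-212432675 and chr1:212432648-212432709 on the plus strand, overlapped by 28 bases, given in capitals, so that they are not independent readings.
Fth1, end of the first probe: caGGCTGCCTTTATCTTTTCTATAAGTTGC
Fth1, start of the second probe: GGCTGCCTTTATCTTTTCTATAAGTTGCac

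The labels of the tissues were borne out by defining markers. In the C group, 9 of 9 genes of the stomach mucosa were higher in stomach, beside 22.7% of all probes (limma, adjusted p under 0.05). They included Atp4a, a subunit of the acid pump, and Gif, intrinsic factor. Of 13 genes of enterocytes, 11 were higher in middle intestine, beside 22.3% of all probes, and 1 was higher in stomach. The intestinal transcription factor Cdx2 lay from -5.39 to -5.00 on the stomach arrays and from 1.34 to 1.82 on those of the middle intestine. Cdx1, of the same list, did not follow it, with 0.09 to 0.56 on the stomach arrays and -0.52 to 0.16 on those of the middle intestine. Between 69.4% and 77.6% of the spots were well above background in Cy5, and the median raw Cy3 signal of the reference ranged from 188 to 195 scanner units on the C arrays and from 341 to 399 on the OH arrays. No slide held arrays of more than 1 group, and the slides of the OH rats had another scan day than those of the C rats, so that treatment cannot be told apart from slide or day of scanning, nor can tissue from slide within a treatment.

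Some arrays stood apart from their group in genes that mark a position along the gut. These lists were chosen after the data had been seen. On OH middle intestine replicate 1, the mean over 9 genes of the proximal small intestine (of which Slc11a2 and Slc46a1 are also iron genes) was 0.76, against -1.20 to -0.40 on the other OH middle intestine arrays and -0.90 to -0.59 on those of C. Among them, the duodenal and antral transcription factor Pdx1 was at 1.67 on this array. It ran from -2.99 to -1.91 on the other 7 arrays of the middle intestine. Not all proximal genes followed. Gip, at 0.99 on this array, lay below OH middle intestine replicates 2 and 4 and C middle intestine replicates 3 and 4. Slc46a1, at 1.08, lay below OH middle intestine replicate 2. Sct, at 0.29, was little above C middle intestine replicate 1 (0.16). Apart from Gip and Slc46a1, each gene of the list had its highest value in the middle intestine on OH middle intestine replicate 1. The mean of 8 genes of the distal small intestine was 1.11 there and 0.93 to 2.50 on the other 7, and its genes did not move together. The ileal bile acid binder Fabp6 was at 3.85 there, while the hormone genes Gcg and Pyy were at -0.45 and -1.81, each the lowest of the 8 arrays of the middle intestine (0.65 to 2.72 and -1.18 to 0.0025 on the other 7). In the stomach, the antral hormone gene Gast was at -2.01 on C stomach replicate 2 and at -2.02 on OH stomach replicate 4, and from 3.34 to 4.73 on the other 6 stomach arrays. The part of these differences between arrays in the results was not tested, and results that rest on OH middle intestine replicate 1 are given with and without it.

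**Figure D1:**
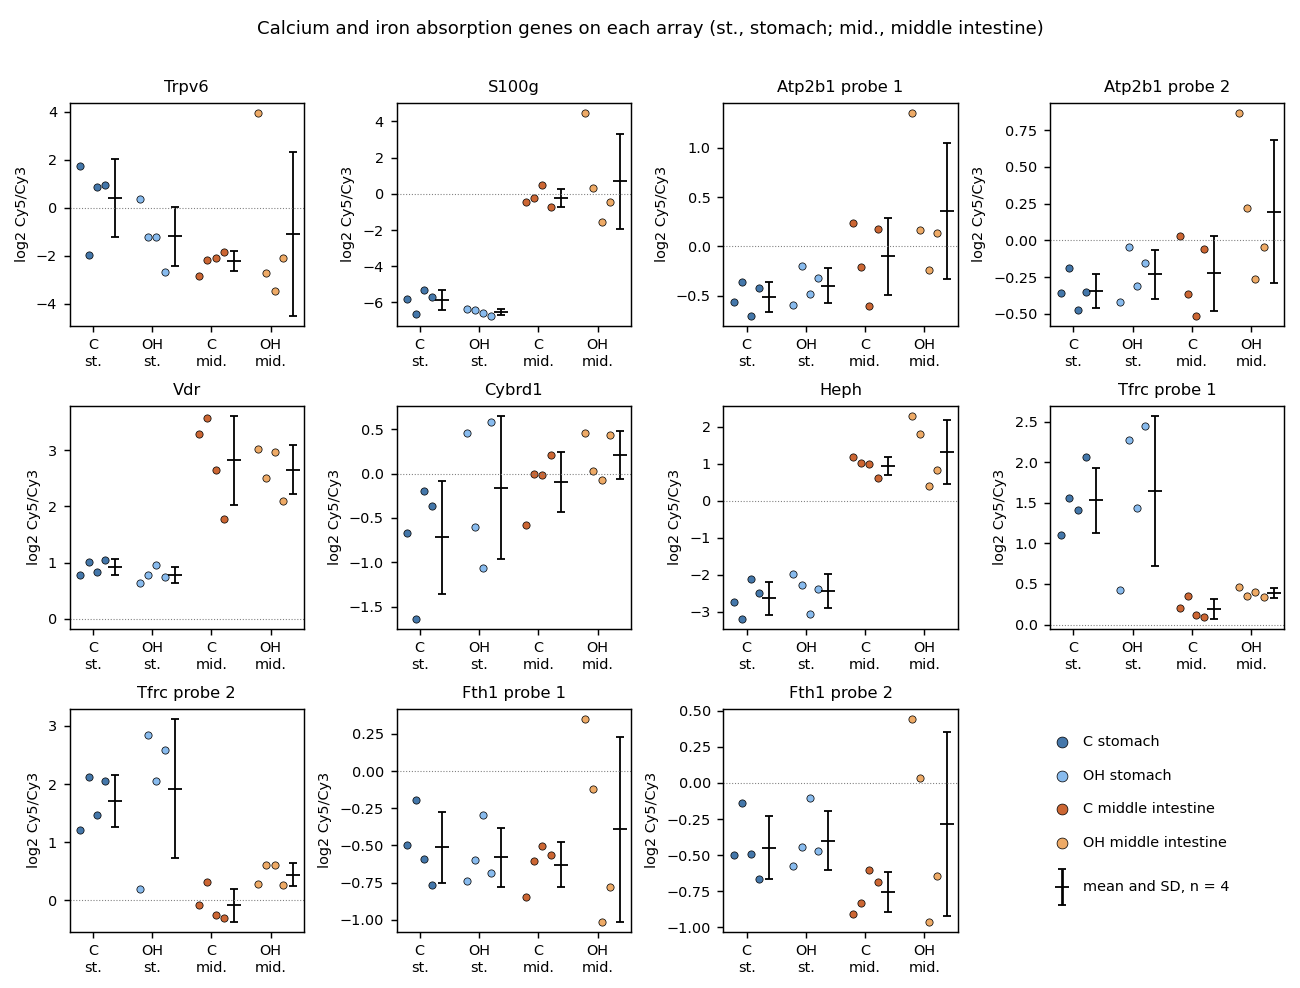
Log2 ratio of Cy5 (tissue) to Cy3 (reference pool) for the 11 probes of the 8 genes; each point is 1 array, in the order of the replicate numbers, and the bars give the mean and SD of the 4 arrays of a group. S100g, Heph and Vdr lie higher in the middle intestine than in the stomach and Tfrc lower, and 1 OH middle intestine array, replicate 1, lies above all others for Trpv6, S100g, Heph and both probes of Atp2b1 and Fth1.

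Which genes of calcium entry, buffering and export differed between stomach and middle intestine was asked first in rats given saline. S100g and Vdr were higher in the middle intestine, and Trpv6 and Atp2b1 did not pass the test. S100g had the widest range of the 8 genes. In C stomach its log2 ratios were -5.81, -6.61, -5.30 and -5.71 on replicates 1 to 4, and in C middle intestine -0.43, -0.23, 0.49 and -0.71. No array of either tissue reached the range of the other. S100g was 49.9-fold higher in C middle intestine (log2 difference of stomach minus middle intestine -5.64 ± 0.89 SE, limma adjusted p = 0.000140; exact permutation p = 0.029, two-sided, the smallest that 4 arrays against 4 allow).

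Vdr, the receptor that carries the signal of vitamin D to the genome, ran from 0.77 to 1.05 in C stomach. In C middle intestine it was at 3.29, 3.57, 2.64 and 1.78. All arrays of the intestine lay above all of the stomach, and the highest and lowest arrays of the intestine were further apart than the whole range of the stomach. Vdr was 3.74-fold higher in C middle intestine (log2 difference -1.90 ± 0.31, limma adjusted p = 0.000171). The probe was dim, with a mean difference of -2.91 in the log2 Cy5 signal and of -1.0 in the log2 Cy3 signal, although Cy3 held the same pool on all arrays. With Cy5 alone, without the reference, the difference was -2.83, and with normexp background correction and loess it was -1.31 (adjusted p = 0.000191).

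Trpv6, the calcium channel of the brush border, was at 1.75, -1.96, 0.86 and 0.94 in C stomach and at -2.83, -2.18, -2.08 and -1.84 in C middle intestine. Replicates 1, 3 and 4 of the stomach lay above all arrays of the intestine, and replicate 2, the array with low Gast, lay among them. In C middle intestine the probe was not well above background, apart from 1 of 2 spots on replicate 3. Its level there is therefore a bound, and by that bound the mean of C stomach was at least 5.32-fold higher. The bound allows for the detection limit only, and not for the spread between arrays. The probe was kept only through C stomach and OH stomach, where all 4 arrays were well above background. The log2 difference of 2.63 ± 1.29 (95% interval -0.13 to 5.38) did not pass the test (limma adjusted p = 0.111; exact permutation p = 0.057). It did pass when OH middle intestine replicate 1 was left out (limma adjusted p = 0.00988), an array that enters this comparison only through the spread shared by the 4 groups. In all it passed in 4 of 33 settings, with adjusted p from 0.000388 to 0.298 over the settings. In 1 of the 4, chosen after the data had been seen, C stomach replicate 2 was left out as well.

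Atp2b1, the calcium pump of the basolateral membrane, differed little. Its first probe ran from -0.70 to -0.36 in the stomach of C rats and from -0.60 to 0.24 in their middle intestine, and its second from -0.47 to -0.19 and from -0.51 to 0.03. The tissues overlapped for both. The log2 differences were -0.42 ± 0.28 and -0.12 ± 0.20 (limma adjusted p = 0.235 and 0.654).

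Of the iron genes in the C group, Heph was higher in the middle intestine and Tfrc was higher in the stomach, while Cybrd1 and Fth1 did not pass the test. Heph, the ferroxidase of iron export, was at -2.74, -3.19, -2.12 and -2.50 in C stomach and at 1.17, 1.02, 0.98 and 0.61 in C middle intestine. The 2 tissues lay apart without overlap. Heph was 12.0-fold higher in C middle intestine (log2 difference -3.58 ± 0.36, limma adjusted p = 2.09e-06; exact permutation p = 0.029).

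Tfrc, the receptor for transferrin-bound iron, was at 1.1, 1.56, 1.42 and 2.06 in C stomach by its first probe and at 0.20, 0.35, 0.12 and 0.09 in C middle intestine. The probe across the splice junction gave 1.2, 2.12, 1.48 and 2.06 against -0.08, 0.32, -0.25 and -0.30. By both probes every stomach array lay above every array of the intestine. Tfrc was 2.53-fold and 3.47-fold higher in C stomach (log2 differences 1.34 ± 0.33 and 1.79 ± 0.43, limma adjusted p = 0.00477 and 0.00385). Of 7 erythroid genes 2 were also higher in C stomach, as were 6 of 8 genes of striated muscle, beside 22.7% of all probes (limma). In turn 5 of 5 proliferation genes were higher in C middle intestine, beside 22.3% of all probes. Of 5 macrophage genes 0 passed, with 0 at an unadjusted p under 0.05 as well. The part of these cell types in the difference of Tfrc was not tested.

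Cybrd1, the ferric reductase, was at -0.67, -1.63, -0.20 and -0.37 in C stomach and at -0.57, -0.01, -0.01 and 0.21 in C middle intestine. The tissues overlapped, and the lowest array was C stomach replicate 2. The log2 difference was -0.62 ± 0.37 (limma adjusted p = 0.181). Fth1, the heavy chain of ferritin, lay between -0.76 and -0.19 in C stomach and between -0.85 and -0.50 in C middle intestine by its first probe, with a log2 difference of 0.12 ± 0.24 (adjusted p = 0.708). Its second probe gave 0.31 ± 0.24 (adjusted p = 0.316).

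In all, 5 of the 11 probes, of 4 genes, passed the test in the C group, where 44.9% of all probes did. By direction, 3 probes were higher in the middle intestine, as were 22.3% of all probes, and 2 were higher in the stomach, as were 22.7%. The arrays of the tissues did not overlap for 5 of the 11 probes and for 43.7% of all. The median difference of the 11 probes was -0.12 and that of all probes -0.01.

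The same comparison in rats given obestatin used other rats and other arrays. S100g was at -6.37, -6.43, -6.57 and -6.73 in OH stomach and at 4.46, 0.30, -1.57 and -0.47 in OH middle intestine. All 4 stomach arrays lay within 0.4 of each other, while replicate 1 of the intestine lay more than 4 above the next array of its group. The log2 difference was -7.21 ± 0.89 (limma adjusted p = 1.60e-05), and without OH middle intestine replicate 1 it was -5.95 ± 0.40. Heph was at -1.98, -2.27, -3.07 and -2.40 in OH stomach and at 2.29, 1.80, 0.41 and 0.83 in OH middle intestine, with no overlap and a log2 difference of -3.76 ± 0.36 (adjusted p = 1.37e-06). Vdr lay between 0.63 and 0.96 in OH stomach and between 2.1 and 3.03 in OH middle intestine, again without overlap, with a log2 difference of -1.88 ± 0.31 (adjusted p = 0.000221).

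Tfrc was again higher in the stomach, but with overlap. Its first probe was at 0.43, 2.27, 1.43 and 2.45 in OH stomach and at 0.46, 0.35, 0.40 and 0.34 in OH middle intestine. OH stomach replicate 1 lay at the level of the intestine, and the other 3 stomach arrays lay above it. The log2 differences were 1.26 ± 0.33 and 1.48 ± 0.43 by the first and second probe (limma adjusted p = 0.00822 and 0.0140). The exact permutation test, two-sided, gave p = 0.057 and 0.143, so that neither probe passed 0.05 by it. Without OH stomach replicate 2 the second probe gave 1.17 and missed the threshold (adjusted p = 0.0510). It lost the threshold in 3 of 33 settings, with a highest adjusted p of 0.0591. In the OH group 0 of 7 erythroid genes and 2 of 8 genes of striated muscle were higher in stomach, beside 19.2% of all probes (limma). In turn 5 of 5 proliferation genes were higher in OH middle intestine, beside 19.1% of all probes, and 0 of 5 macrophage genes passed.

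The first probe of Atp2b1 passed the test in the OH group and not in the C group, with values between -0.60 and -0.20 in OH stomach and of 1.35, 0.17, -0.24 and 0.13 in OH middle intestine. The log2 difference was -0.75 ± 0.28 (limma adjusted p = 0.0421, exact permutation p = 0.057). It was -0.42 ± 0.19 without OH middle intestine replicate 1, the highest array (limma adjusted p = 0.109). It also missed the threshold when any of 8 other arrays was left out (each OH stomach array, C stomach replicates 1, 3 and 4, and C middle intestine replicate 2), with adjusted p from 0.0506 to 0.0927. Its second probe gave -0.43 ± 0.20 (adjusted p = 0.109).

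Trpv6 was at 0.35, -1.21, -1.21 and -2.70 in OH stomach and at 3.95, -2.72, -3.49 and -2.10 in OH middle intestine. Replicate 1 of the intestine was the highest of all 16 arrays and the lowest stomach array was replicate 4, which had low Gast. The log2 difference was -0.10 ± 1.29 (limma adjusted p = 0.959) with that intestine array and 1.58 ± 0.78 without it (adjusted p = 0.139). On replicates 2 to 4 of the intestine at most 0.5 of the Trpv6 spots were well above background, so that 1.58 rests on dim signals there. Cybrd1 was at 0.46, -0.61, -1.07 and 0.58 in OH stomach, where replicates 1 and 4 were high. The mean of 6 smooth muscle genes was also high on these arrays, at 0.86 and 0.06 against -1.58 and -2.77 on replicates 2 and 3. Macrophage genes (-0.67 and -0.50 against -1.28 and -1.53) and striated muscle genes (0.91 and 0.44 against -0.38 and -0.53) split in the same way. Those of the stomach mucosa were lower on replicates 1 and 4 (2.19 and 2.29 against 2.80 and 2.95). The part of these cell types in Cybrd1 was not tested. The log2 difference of Cybrd1 to the OH middle intestine was -0.37 ± 0.37 (adjusted p = 0.455), and those of the 2 Fth1 probes were -0.19 ± 0.24 and -0.12 ± 0.24 (adjusted p = 0.566 and 0.735).

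Of the 11 probes, 6 of 5 genes passed in the OH group, where 38.2% of all probes did, and the tissues did not overlap for 3 of the 11 and for 35.2% of all probes. By direction, 4 probes were higher in the middle intestine, as were 19.1% of all probes, and 2 were higher in the stomach, as were 19.2%. Without OH middle intestine replicate 1, the number was 5 of 11, beside 34.5% of all probes.

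**Figure D2:**
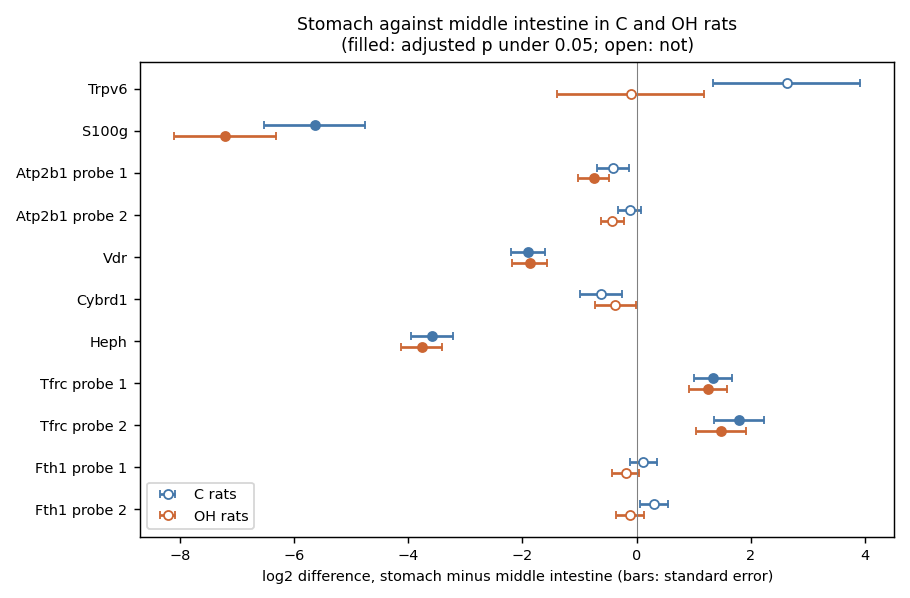
Log2 difference of stomach minus middle intestine for the 11 probes in C rats and in OH rats, with the standard error of the limma fit as bars; filled points passed an adjusted p of 0.05. S100g, Vdr and Heph lie to the left of 0 (higher in middle intestine) and both Tfrc probes to the right in both groups of rats.

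The promoters of the genes with the clearest difference between the tissues could be compared for 2 of the 3 genes that were higher in the intestine, Vdr and Heph. RefSeq (GRCr8) gives the 250 bases before the start site as chr7:130916758-130917007 on the minus strand for Vdr and as chrX:65308806-65309055 on the plus strand for Heph. The capitals mark the GC box GGGCGG, searched on both strands.
Vdr: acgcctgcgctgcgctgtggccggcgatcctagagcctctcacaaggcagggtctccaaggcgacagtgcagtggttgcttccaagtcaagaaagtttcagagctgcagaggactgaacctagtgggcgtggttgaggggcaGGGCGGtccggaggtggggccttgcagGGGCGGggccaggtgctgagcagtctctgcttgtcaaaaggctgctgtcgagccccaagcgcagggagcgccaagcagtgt
Heph: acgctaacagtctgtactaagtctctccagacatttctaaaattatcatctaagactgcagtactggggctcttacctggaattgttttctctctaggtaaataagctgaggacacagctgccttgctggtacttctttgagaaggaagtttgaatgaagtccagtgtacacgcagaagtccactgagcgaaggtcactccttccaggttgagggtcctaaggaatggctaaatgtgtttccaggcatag

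The Vdr window held 2 GC boxes and 63.6% G and C, and the Heph window held none and 44.8% G and C. Among 33469 promoter windows of this length, 30.5% held a GC box.

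The arrays were also compared between OH and C, since the study asked how enteral obestatin acts on the developing gut. No probe of the 8 genes passed the test in stomach or in middle intestine (limma, adjusted p under 0.05), and none had an unadjusted p under 0.05 in either tissue. For no probe did the arrays of OH and C lie apart without overlap, as they did for 7.6% of all probes in stomach and 5.86% in middle intestine. In stomach 0 of all 21174 probes passed and 10.6% had an unadjusted p under 0.05. In middle intestine 0.368% of all probes passed and 10.5% had an unadjusted p under 0.05. The 0 in stomach depended on the setting. By analysis of variance with Tukey comparisons, the type of test named in the paper, 709 probes passed in stomach and 936 in middle intestine. In stomach, 1177 passed with array weights, 639 of 30367 without the filter on dim probes and 311 without C stomach replicate 2. Most other settings gave 0 to 5 there. The probes of the 8 genes did not pass under any of these. The paper reports changed genes in both tissues.

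In stomach the differences of OH minus C were narrow for most genes. For Vdr the log2 difference was -0.14 (95% interval -0.80 to 0.51), for the first Atp2b1 probe 0.11 (-0.47 to 0.70), for Heph 0.21 (-0.57 to 0.98), for the first Tfrc probe 0.11 (-0.60 to 0.83) and for the first Fth1 probe -0.07 (-0.58 to 0.44). These intervals hold no change of more than about 2-fold. Larger changes lay inside the other intervals. The second Tfrc probe had a log2 difference of 0.21 (-0.72 to 1.13) and Cybrd1 of 0.56 (-0.22 to 1.34), which hold larger changes upwards, and S100g of -0.67 (-2.56 to 1.23) and Trpv6 of -1.59 (-4.34 to 1.17), which hold them in both directions. Trpv6 was above 0 on 3 of 4 C stomach arrays and on 1 of 4 OH stomach arrays. Without both C stomach replicate 2 and OH middle intestine replicate 1, a setting chosen after the data had been seen, the difference was -2.37 (limma adjusted p = 0.0619). That setting left out C stomach replicate 2, low in Gast and at -1.96 for Trpv6. It kept OH stomach replicate 4, also low in Gast and at -2.70 for Trpv6, so that it favoured a lower value in OH.

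In middle intestine 10 of 11 probes had a higher mean in OH, with a median log2 difference of 0.42 beside 0.001 over all probes. That count rested in part on 1 array. Without OH middle intestine replicate 1, 7 of 11 were higher, with a median of 0.12, and the sign turned for S100g (from 0.90 ± 0.89 to -0.36 ± 0.40), for Trpv6 (from 1.14 ± 1.29 to -0.54 ± 0.78) and for the first Fth1 probe (from 0.24 ± 0.24 to -0.01 ± 0.20). For Trpv6, at most 0.5 of the spots were well above background on any other array of the middle intestine, so that -0.54 compares dim signals. Both Atp2b1 probes stayed above 0 at 0.12 and 0.20, down from 0.45 and 0.42. Heph went from 0.39 to 0.07. By the second Tfrc probe the OH mean was 0.52 ± 0.43 higher with and 0.58 ± 0.48 higher without that array, and this probe had log2 differences of -0.0002 in Cy5 and -0.52 in Cy3, so that the higher ratio came with a lower signal of the reference. Vdr was the probe with a lower mean in OH (-0.17, 95% interval -0.82 to 0.49), and with Cy5 alone its difference was 0.05.

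**Figure D3:**
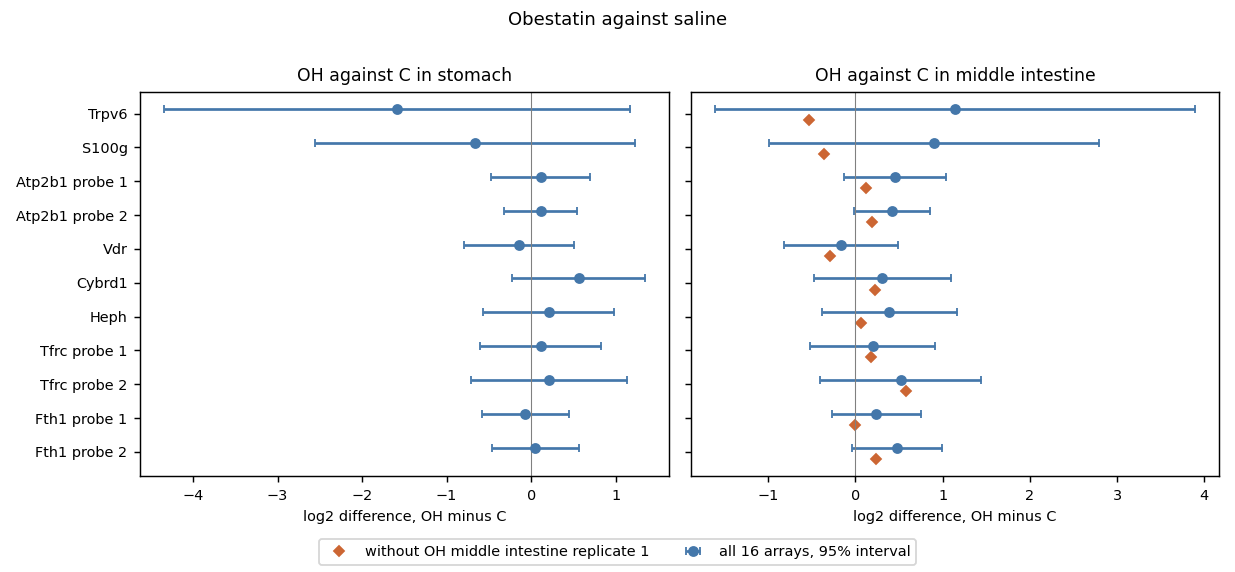
Log2 difference of OH minus C for the 11 probes in stomach (left) and middle intestine (right); circles with bars give the limma estimate and its 95% interval over all 16 arrays, and diamonds the estimate without OH middle intestine replicate 1. Every interval holds 0, and the diamonds of Trpv6 and S100g lie on the other side of 0 from the circles.

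The response to obestatin did not differ detectably between the tissues for any of the 11 probes (limma, test of the difference of the differences, adjusted p under 0.05), nor at an unadjusted p under 0.05, nor for any of the 21174 after adjustment, of which 5.85% had an unadjusted p under 0.05. The widest estimates were those of Trpv6, -2.73 ± 1.82 (adjusted p = 0.870), and S100g, -1.57 ± 1.25 (adjusted p = 0.899). Without OH middle intestine replicate 1 they were -1.05 ± 1.07 and -0.31 ± 0.54 (adjusted p = 0.998 for both).

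Within the OH middle intestine, replicate 1 held the highest value of all 16 arrays for 7 of the 11 probes, of 5 genes that between them serve entry, buffering, export and storage. Trpv6 was 6.67 above the median of the other 3 arrays, the largest gap of all 21174 probes. S100g was 4.93 above, Heph 1.47, the Atp2b1 probes 1.22 and 0.91, and the Fth1 probes 1.13 and 1.09. Vdr was 0.53 above and Cybrd1 0.42. The Tfrc probes were 0.11 above and -0.33, so that the receptor for iron from the blood side did not stand out there. Over all probes the median gap was -0.03 with an SD of 0.49. Among the gaps of all probes, that of the second Atp2b1 probe, the smallest of the 7, was at percentile 96.4. The second Tfrc probe was at percentile 17.8. The share of all probes with their highest value on this array is not given here, so that the count of 7 of 11 has no background.

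For Trpv6 and S100g the tissue channel moved further than the reference on OH middle intestine replicate 1. The log2 Cy5 signal of Trpv6 was 11.98 on that array and from 3.08 to 4.44 on the other 7 arrays of the middle intestine. The log2 Cy5 signal of S100g was 17.96 there and from 13.70 to 15.40 on the others. The log2 Cy3 signal also left its range, to 8.03 for Trpv6 beside 5.98 to 6.75 on the other 15 arrays, and to 13.49 for S100g beside 14.70 to 15.27. The reference thus moved up with Cy5 for Trpv6 and down for S100g, and its shift was smaller than that of Cy5 for both. For the first Fth1 probe the log2 Cy5 signal was 16.69 on that array and from 15.96 to 16.15 on the others of its group. Its log2 Cy3 signal was 16.34 on that array and from 16.265 to 16.97 on the others of its group.

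**Figure D4:**
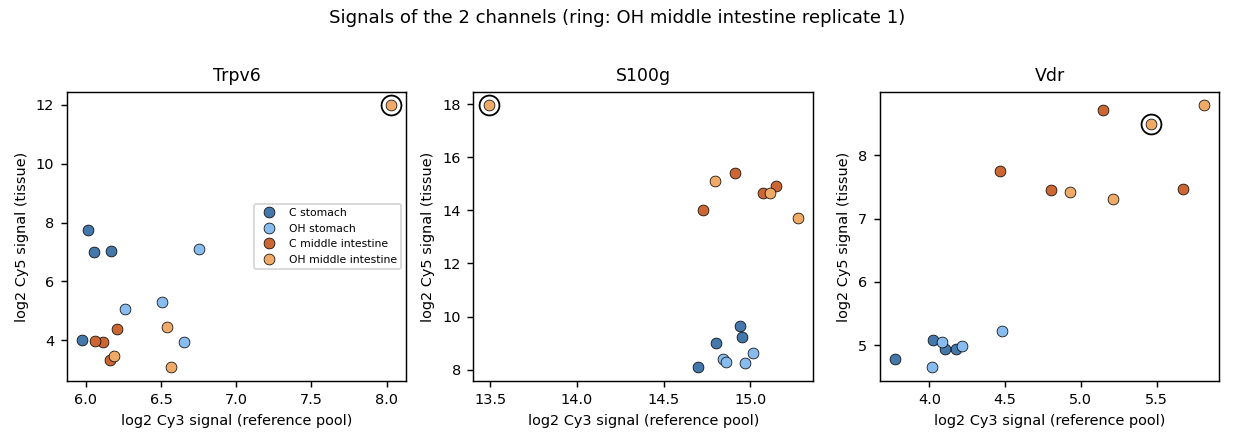
Log2 signal of the tissue channel (Cy5) against that of the reference pool (Cy3) for Trpv6, S100g and Vdr on the 16 arrays, coloured by group. The ringed array, OH middle intestine replicate 1, has the highest Cy5 signal for Trpv6 and S100g, with the highest Cy3 signal for Trpv6 and the lowest for S100g.

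Slc11a2 and Slc40a1, iron transporters that are no members of the set, moved the same way on that array. Slc11a2, the apical iron transporter, was at 1.26 there and from -1.15 to 0.16 on the other 7 arrays of the middle intestine. Slc40a1, ferroportin, was at 2.05 there and from -1.28 to 0.05 on the others. Cck, a hormone gene of the proximal intestine, was at 1.88 there and from -0.19 to 0.56 on the others, and Onecut2 was at 0.07 there and from -2.32 to -1.09 on the others. Gip and the iron gene Slc46a1, also of the proximal list, did not peak on that array, as given above. The mean of 13 enterocyte genes was 0.53 on that array, inside the range of -0.77 to 1.24 on the other 3 arrays of its group, and that of 5 pancreas genes was -3.37, beside -3.67 to -1.85.

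**Figure D5:**
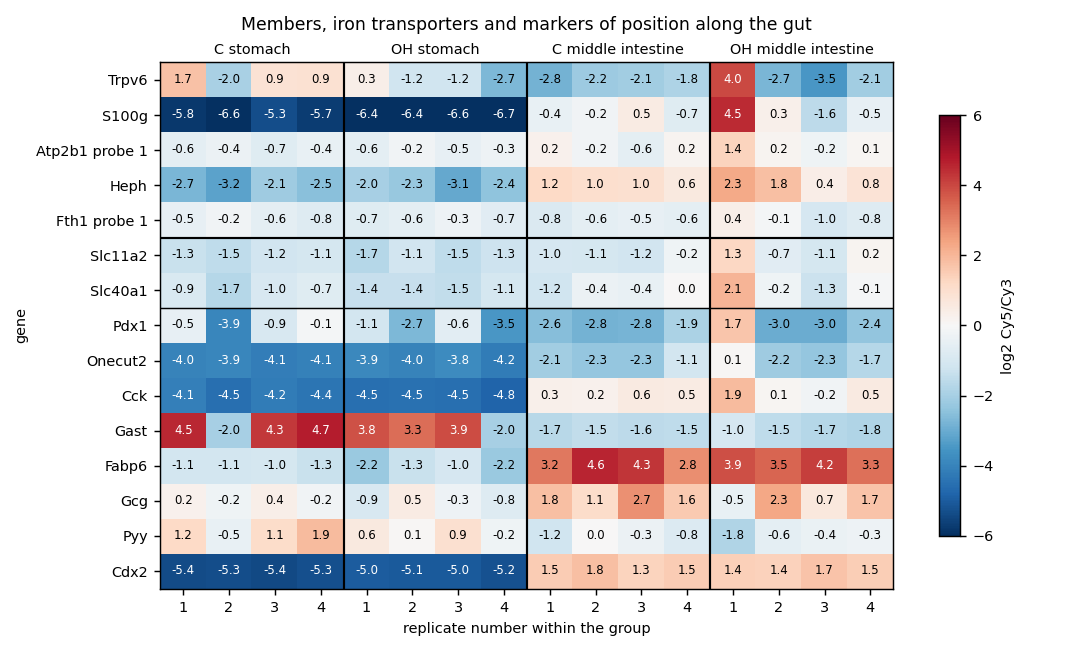
Log2 ratio of Cy5 to Cy3 on each of the 16 arrays (columns, replicates 1 to 4 of each group) for 5 members, 2 iron transporters and 8 genes that mark a position along the gut (rows); the colour scale is cut at -6 and 6 and each cell gives its value. OH middle intestine replicate 1 is high from Trpv6 to Cck, keeps Fabp6 and Cdx2 at the level of its group and is the lowest array of the middle intestine for Gcg and Pyy, and C stomach replicate 2 and OH stomach replicate 4 are low in Gast, Pdx1 and Trpv6. Gip, Slc46a1 and Sct of the proximal list are not shown.

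Of 30 other genes of calcium handling, 24 were measured. In the C group 5 were higher in stomach and 6 higher in middle intestine (limma, adjusted p under 0.05), which is 11 of 24 beside 44.9% of all probes. The largest differences of stomach minus middle intestine were those of Pthlh, a relative of parathyroid hormone (3.27 ± 0.54), and Cyp27a1, a hydroxylase of the vitamin D and bile acid pathways (1.54 ± 0.30), on the side of the stomach. On the side of the intestine were Cldn15, which forms cation pores in tight junctions (-4.76 ± 0.48), and Calb2, calretinin, a calcium-binding protein known from neurons (-4.32 ± 0.28). In the OH group 5 were higher in each tissue, 10 of 24 beside 38.2% of all probes, led by Pthlh (3.24 ± 0.54) and Cyp27b1, which makes the active form of vitamin D (2.40 ± 0.58), and by Cldn15 (-4.67 ± 0.48) and Cldn2, another pore-forming claudin (-4.27 ± 0.50). Between OH and C, 0 of 24 passed in either tissue (limma), while an unadjusted p under 0.05 was found for 2 genes in stomach and 1 in the intestine, beside the same shares of all probes as above.

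Of 43 other genes of iron handling, 36 were measured. In the C group 6 were higher in stomach and 12 higher in middle intestine, which is 18 of 36 beside 44.9% of all probes. Hamp, the iron hormone hepcidin (5.02 ± 0.23), and Steap3, an endosomal ferric reductase (1.97 ± 0.35), led on the side of the stomach, and Itln1, an intestinal lectin that binds lactoferrin (-6.61 ± 0.27), and Slc39a8, a metal importer (-2.88 ± 0.21), on the side of the intestine. The OH group had 7 and 13, which is 20 of 36 beside 38.2% of all probes, with the same 4 genes in front. Slc11a2 (-1.32 ± 0.38, limma adjusted p = 0.0131) and Slc40a1 (-1.45 ± 0.51, adjusted p = 0.0356) passed in the OH group and not in the C group (adjusted p = 0.411 and 0.367). Without OH middle intestine replicate 1, Slc11a2 still passed (-0.87 ± 0.28, adjusted p = 0.0263) and Slc40a1 did not (-0.80 ± 0.33, adjusted p = 0.0732), and the count of the OH group was 7 and 12.

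Between OH and C, 1 of the 36 iron genes passed in middle intestine, beside 0.368% of all probes, and 0 in stomach, where 0 of all probes passed (limma). An unadjusted p under 0.05 was found for 5 of them in middle intestine and 4 in stomach, beside 10.5% and 10.6% of all probes. Hp, haptoglobin, which binds free haemoglobin, was at -4.64, -4.53, -4.69 and -4.35 in C middle intestine and at -3.96, -4.13, -3.86 and -3.94 in OH middle intestine. All OH arrays lay above all C arrays, while OH and C lay apart in either direction for 5.86% of all probes in this tissue. The log2 difference of Hp was 0.58 ± 0.11 (limma adjusted p = 0.0474). It missed the threshold without OH middle intestine replicate 1, at the same size (0.57 ± 0.13, adjusted p = 0.0903). In stomach the difference of Hp was 0.24 ± 0.11 (adjusted p = 0.470).

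The genes whose pattern over the 16 arrays was most like that of a member were named by Pearson's r of the log2 ratios among 13786 genes, without a test, since the arrays share tissues and slides. For S100g they were Tm4sf20 and Slc28a2 (r = 0.98 for both), for Trpv6 Pkib (0.92) and Pdx1 (0.90), and for Atp2b1 Slc11a2 (0.90) and Slc44a4 (0.88). Vdr was most like Tpi1 and Ddx19b (0.97 for both). For Heph they were Ctss and Trim30 (0.99 for both), for Cybrd1 Serpinb9 (0.95) and Cpq (0.93), for Tfrc Pga5 (0.93) and F2 (0.92), and for Fth1 Ncoa4 (0.92) and Acadm (0.89). OH middle intestine replicate 1 was the highest array for Trpv6, S100g, Atp2b1, Heph and Fth1, and its part in these r was not tested.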

How the data were processed

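The tissue RNA of 16 arrays was measured in Cy5 and the pool in Cy3, with groups taken from the labels. The authors deposited for each array the scanner output of Agilent Feature Extraction (10.10.1.1 per the file headers, 10.7.3.1 in the submitters' processing notes). The raw and processed intensity deposited per spot come from that program, the latter after background subtraction, detrending and Lowess normalization between dyes, with marks for dim and outlier spots. A deposited table of log10 ratios repeats its ratios. The file of OH stomach replicate 1 had been saved with rounded signals and 68 gene names turned to dates, so names came from another array. Probe sequences and rn4 coordinates are those of the design.

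Log2 ratios of processed signals were averaged over the spots of a probe, without outlier spots. A probe was kept if at least 0.5 of its spots were well above background in every Cy5 channel of at least 1 group, with at least 3 values per group. One limma 3.58.1 model (R 4.3.3, lmFit, eBayes with 2.47 prior degrees of freedom) held a mean for each group. P-values were adjusted by Benjamini-Hochberg over 21174 probes. Errors after ± are its standard errors. Exact permutation tests were two-sided. Limma p-values rest on the spread between arrays within groups, shared by all 4 groups, and having 4 arrays per group limits the precision. The paper states 4 litters for each treatment, and litter was not in the fit. For the bound, a dim probe was set on each array to its own Cy5 signal or to the lowest that was well above background, whichever was higher, with Aquantile normalization applied to the Lowess-normalized signals. This leaves a bound open to dye bias. For lists, each gene was read by its probe with the highest mean Cy5 signal. The fit was tested on simulated ratios.

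The members and lists were chosen with earlier results of these data known. The lists of proximal and distal genes, and the setting without 2 arrays, were chosen after seeing the data. For each member the 2 genes with the highest r are named, and for each pathway list the 2 with the largest change in each direction. Markers of erythroid cells, macrophages, striated muscle and proliferation were read as well. Alternatives changed the background correction, scaling, centring, use of the reference, source of the ratios, filters, arrays and blocks in the fit, moderation, weights, test, threshold and number of probes, and left out each array in turn.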

Additional observations from a re-analysis of the deposited data

How the results depend on the processing

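Over 34 settings the number of probes that passed stayed from 4 to 6 of 11 between C stomach and C middle intestine and from 4 to 7 between OH stomach and OH middle intestine, and it was 0 under each of the 33 settings run for the 2 comparisons of OH with C and each of the 31 run for the difference between them. Leaving out each array in turn gave 5 to 6 and 4 to 7 probes for the tissue comparisons. The stomach and middle intestine samples of 1 treatment may come from the same rats, but the labels tie no number to a rat. Deviations of same-numbered samples correlated between the tissues with r from 0.06 to 0.25 in C, where 3 of 4 numbers matched best, and from -0.12 to 0.32 in OH, where 2 of 4 did, so that the pairing was not settled. With the replicate number as a block the counts were 5, 6, 0, 0 and 0, and with 8 blocks of treatment and number 5 and 5, where the first Atp2b1 probe missed the threshold in OH (adjusted p = 0.0586). Trpv6 between OH stomach and OH middle intestine turned from -0.10 to 1.58 (limma adjusted p = 0.0441) without OH middle intestine replicate 1 and C stomach replicate 2, a setting chosen after seeing the data; the cause was not tested. For single probes, 18 values lost the threshold and 6 gained it, in Atp2b1, Trpv6 and Tfrc, and 53 others changed sign without passing it in either setting. Vdr, S100g and Heph passed between the tissues under each setting run for them. Dim signals limit Trpv6 in the middle intestine and Vdr in the stomach.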
